A study of Mus musculus with 140 samples.

Results

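The neurexin and contactin-associated protein genes examined here were Cntnap2, Cntnap4, Cntnap5a, Cntnap5b, Cntnap5c, Nrxn2 and Nrxn3. Their listed silencer intervals were those that overlapped, by at least 1 bp, the gene body or the 10 kb on either side of it (the territory) in mm10, with gene models from GENCODE M21. The 7 territories spanned 6.69 Mb and held 306 of the 115165 intervals listed for mouse embryonic stem cells (mESCs) and 233 of the 89596 intervals listed for mouse embryonic fibroblasts (MEFs). The rule used names and family and no measured value, although earlier results of these data were known when it was written.

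The study screened the mouse genome for silencers, stretches of DNA that repress transcription. Its assay, Ss-STARR-seq, puts pieces of fragmented genomic DNA into a reporter vector and reads the RNA that the vector makes once it is inside the cells. The labels describe 56 libraries of reporter RNA from mESCs kept in N2B27 medium with 2i and LIF, in 3 output sets, 64 libraries from MEFs kept in DMEM with serum, in 4 output sets, and 20 libraries of the input plasmids. They name no genotype, strain or treatment that differs between the groups. The deposited result is 1 interval list per cell type, which gives the position of each interval and its fold. The fold is the authors' linear ratio, and every listed fold lay above 2. The sources used here do not say which libraries form the ratio, and a high fold is therefore not taken to mean strong silencing. With 1 list per cell type no difference between mESCs and MEFs had a replicate check, and the p-values below describe these lists. An interval missing from a list does not show that the element was inactive in those cells. No expression values were used here, so the labelled cell types were not checked against their markers.

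Neurexins are presynaptic cell adhesion proteins that bind neuroligins, LRRTMs and cerebellins across the synaptic cleft, and each gene makes long alpha and short beta forms from separate promoters. The contactin-associated proteins, also called Caspr proteins, share the laminin-G and EGF-like extracellular domains of the neurexins and pair with contactins on axons and at synapses. CNTNAP2 helps to gather potassium channels beside the nodes of myelinated axons, and CNTNAP4 is found at synapses of mouse interneurons. Cntnap5a, Cntnap5b and Cntnap5c are 3 mouse genes related to the single human CNTNAP5. These are genes of neurons, and most of them have very long introns.

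The sequences below are, for 5 of the genes with intervals in both lists, the mESC interval with the highest mESC fold among those that overlapped a MEF interval. They show what a listed element of each gene looks like. They are the plus strand of GRCm38 (mm10) as given by RefSeq, and each gene lies on the plus strand. Capitals mark the bases listed in both cell types and lower case those in 1 list only. Each run begins at the base after the listed start, and coordinates elsewhere are as the lists give them.

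Cntnap2, intron 8, chr6:46149257-46149506: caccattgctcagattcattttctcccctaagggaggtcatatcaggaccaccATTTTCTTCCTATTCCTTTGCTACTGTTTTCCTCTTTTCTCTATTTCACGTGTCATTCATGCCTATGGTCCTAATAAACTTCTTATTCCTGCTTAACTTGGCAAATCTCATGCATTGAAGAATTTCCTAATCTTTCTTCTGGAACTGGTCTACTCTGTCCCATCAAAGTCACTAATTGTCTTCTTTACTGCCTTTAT
Cntnap5a, intron 1, chr1:115817402-115817701: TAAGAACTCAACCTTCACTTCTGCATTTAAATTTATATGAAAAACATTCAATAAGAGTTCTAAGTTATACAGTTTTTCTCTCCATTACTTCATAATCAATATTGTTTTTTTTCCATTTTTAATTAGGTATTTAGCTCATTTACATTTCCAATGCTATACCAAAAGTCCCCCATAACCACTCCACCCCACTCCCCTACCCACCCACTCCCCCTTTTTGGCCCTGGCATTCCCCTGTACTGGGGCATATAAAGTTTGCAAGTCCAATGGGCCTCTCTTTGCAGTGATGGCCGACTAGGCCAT
Cntnap5b, intron 13, chr1:100324874-100325073: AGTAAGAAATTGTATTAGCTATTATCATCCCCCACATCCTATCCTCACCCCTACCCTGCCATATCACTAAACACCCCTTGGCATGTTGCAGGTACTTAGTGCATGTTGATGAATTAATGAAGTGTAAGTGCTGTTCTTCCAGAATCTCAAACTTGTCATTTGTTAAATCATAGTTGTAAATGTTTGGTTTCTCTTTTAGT
Cntnap5c, intron 4, chr17:58019118-58019416: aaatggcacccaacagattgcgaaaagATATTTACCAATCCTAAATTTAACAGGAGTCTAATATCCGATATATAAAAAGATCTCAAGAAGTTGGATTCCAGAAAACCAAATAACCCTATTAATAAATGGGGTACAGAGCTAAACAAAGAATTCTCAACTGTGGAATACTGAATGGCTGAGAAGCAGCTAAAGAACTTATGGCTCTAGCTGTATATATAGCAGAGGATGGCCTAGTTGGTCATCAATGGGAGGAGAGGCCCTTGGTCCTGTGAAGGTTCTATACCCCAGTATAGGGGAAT
Nrxn3, intron 14, chr12:89699902-89700051: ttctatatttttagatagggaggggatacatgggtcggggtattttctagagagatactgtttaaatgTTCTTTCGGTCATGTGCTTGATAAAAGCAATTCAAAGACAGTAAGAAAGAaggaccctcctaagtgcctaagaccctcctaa

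Nrxn2 had 1 listed interval, in MEFs only, and its sequence is shown because it is the whole record of that gene.

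Nrxn2, gene body beyond the last exon of the longest coding model, chr19:6535202-6535351: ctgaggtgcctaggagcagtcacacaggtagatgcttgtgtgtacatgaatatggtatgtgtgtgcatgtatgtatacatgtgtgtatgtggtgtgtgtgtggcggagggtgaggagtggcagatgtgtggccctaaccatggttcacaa

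The Cntnap5a element had the highest fold of all 306 mESC and 233 MEF intervals, at 9.64 in mESCs and 10.9 in MEFs. All 300 of its printed bases were in both lists. The Nrxn3 element had folds of 6.44 and 4.31, and the MEF interval covered 50 of its 150 bases. Those of Cntnap2 (6.77 in mESCs and 4.82 in MEFs) and Cntnap5c (5.08 and 5.33) also lay above 4 in both lists. The element of Cntnap5b (2.94 and 3.45) was nearer to the lower limit of the lists. GC content was 37.5% to 39.7% in these 5 elements. Soft-masked repeat made up 84.9% of the Cntnap5c element and 68.3% of the Cntnap5a element, and 8.40% to 24.7% of those of Cntnap2, Cntnap5b and Nrxn3. Repeats limit how surely short reads can be placed, and this was not tested here.

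Silencer intervals were listed in every gene, and 6 of the 7 genes had them in both cell types. Cntnap2 (chr6:45059357-47304213), the longest of these genes with a body of 2245 kb, had 121 mESC and 90 MEF intervals. Nrxn3 (chr12:88722876-90334935, 1612 kb) had 59 mESC and 51 MEF intervals. Cntnap5a (chr1:115684756-116587323, 903 kb) had 53 mESC and 33 MEF intervals. The 3 longest genes thus held the most intervals in both lists. Cntnap5b (chr1:99772765-100485942, 713 kb) had 29 mESC and 22 MEF intervals. Cntnap5c (chr17:57769570-58410355, 641 kb) had 28 mESC and 23 MEF intervals, close to its relative Cntnap5b. Cntnap4 (chr8:112570043-112882717, 313 kb) had 16 mESC and 13 MEF intervals. Nrxn2 (chr19:6418731-6544169, 125 kb), the shortest, had 0 mESC intervals and 1 MEF interval.

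**Figure D1:**
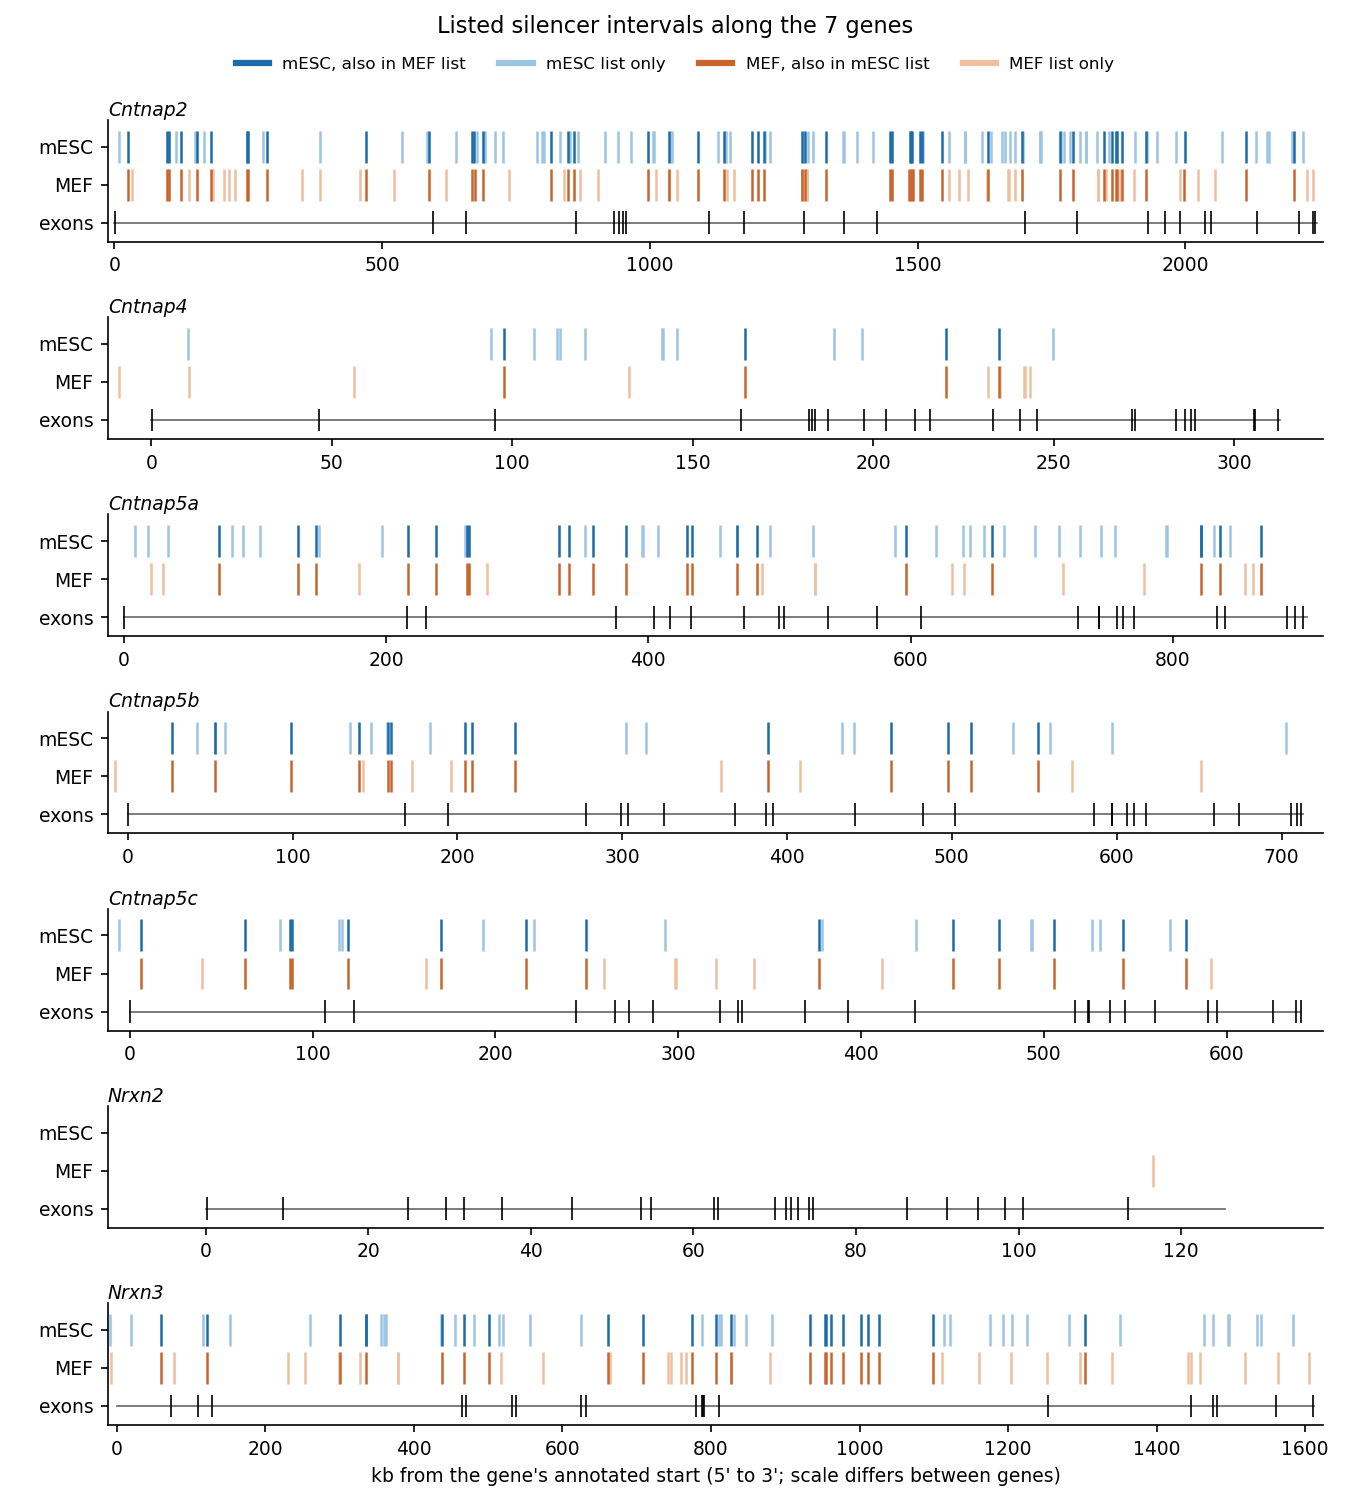
Each tick is 1 listed interval at its midpoint, with mESC intervals above MEF intervals and the exons of the longest coding model below, in kb from the annotated start of each gene. Dark ticks are intervals that overlap the other list. Intervals are spread over 6 genes, with none in the last part of Cntnap4, while Nrxn2 has 0 in mESCs and 1 in MEFs.

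Per length, the genes stood near the whole genome, with 45.7 mESC intervals per Mb (95% exact Poisson interval 40.7 to 51.2) and 34.8 MEF intervals per Mb (30.5 to 39.6) over the 7 territories. The whole lists held 43.5 and 33.8 intervals per Mb of ungapped genome, so the observed counts were 1.05 and 1.03 times those of an even spread. These Poisson intervals cover counting error only, and intervals that gather along a gene make them too narrow. Cntnap5a had the highest mESC density with 57.4 per Mb (43.0 to 75.1), followed by Cntnap2 with 53.4 (44.3 to 63.8) and Cntnap4 with 48.1 (27.5 to 78.1). Cntnap5c (42.4), Cntnap5b (39.6) and Nrxn3 (36.2) came next, and each neighbour in this order lay inside the interval of the one before. In MEFs the order was Cntnap2 (39.7 per Mb), Cntnap4 (39.1), Cntnap5a (35.8), Cntnap5c (34.8), Nrxn3 (31.2), Cntnap5b (30.0) and Nrxn2 (6.88). From Cntnap2 to Cntnap5b, each gene again lay inside the 95% interval of the one before. The 5 contactin-associated protein genes together held 50.3 mESC intervals per Mb (44.2 to 56.9), and the 2 neurexin genes 33.2 (25.3 to 42.8). In mESCs the first of these 95% intervals lay above the genome's density and the second below it. Without Nrxn2 the neurexin value is that of Nrxn3 alone, whose 95% interval (27.5 to 46.6) includes the genome's density. In MEFs the family values were 36.8 (31.7 to 42.6) and 29.3 (21.8 to 38.4), and both intervals included the genome's density. The difference between the families was not tested.

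Each gene's count was set against its territory's share of the ungapped genome with a two-sided exact binomial test, run over all protein-coding genes with at least 5 expected intervals and adjusted by Benjamini-Hochberg. Intervals gather and are not independent, so the p-values of this density test are too small, here and below. Among the 7 members tested in mESCs, 1 passed 0.05, with a density below the genome's. This was Nrxn2, with 0 intervals where 6.33 were expected (exact binomial test, adjusted p = 0.0478). Over all 2627 genes tested in mESCs, 2.70% passed as lower and 6.36% as higher, so a call of this kind was not rare. The Nrxn2 call ended with the gene body alone (5.46 expected, adjusted p = 0.0781) and with intervals within 1 kb merged (adjusted p = 0.0825), and held with 25 kb on each side (adjusted p = 0.0164). The exact Poisson 95% interval of this count of 0 reaches 25.4 per Mb of this territory. The Nrxn2 territory had a GC content of 53.4%, against 37.8% to 40.2% in the other 6, and 17.1% of it was soft-masked, against 21.4% to 40.3%. The part of base composition and of library coverage in the missing intervals was not tested. Of 3174 genes with territories of at least 100 kb, 59 (1.86%) had no mESC interval, Nrxn2 among them, and 94 (2.96%) had no MEF interval. This set includes much longer genes, where a count of 0 is less likely. No share was taken among genes of the length of Nrxn2, whose territory is 145 kb.

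At an unadjusted p below 0.05 there were 3 members in mESCs, against 22.7% of all genes tested. These were Nrxn2, Cntnap2 with 121 intervals where 98.5 were expected (p = 0.0265, adjusted p = 0.153) and Cntnap5a with 53 where 40.1 were expected (p = 0.0479, adjusted p = 0.215), all from the exact binomial test. Among mESC intervals at or above the list's median fold, Cntnap2 and Cntnap5a passed as higher. There Cntnap2 had 75 intervals where 49.3 were expected (1.52 times, exact binomial test, adjusted p = 0.0363). Cntnap5a had 36 where 20.1 were expected (1.79 times, exact binomial test, adjusted p = 0.0464). Among all 933 genes tested with these intervals, 1.39% passed as higher. In the same selection of MEF intervals Cntnap2 had 49 where 38.3 were expected (exact binomial test, adjusted p = 0.422) and Cntnap5a had 20 where 15.6 were expected (exact binomial test, adjusted p = 0.631). Neither passed, beside 0.927% of 647 genes as higher, and the difference between the cell types was not tested. In MEFs 0 of 6 members tested passed in either direction, beside 3.20% of 1814 genes as higher and 1.76% as lower, and 0 members had an unadjusted p below 0.05, beside 18.9% of all genes. Nrxn2 was not tested in MEFs, where 1 interval stood against 4.92 expected. Among longer genes the territories between the lower and upper quartile held 29.9 to 64.6 mESC and 23.2 to 50.8 MEF intervals per Mb. The other 6 members lay inside both ranges.

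**Figure D2:**
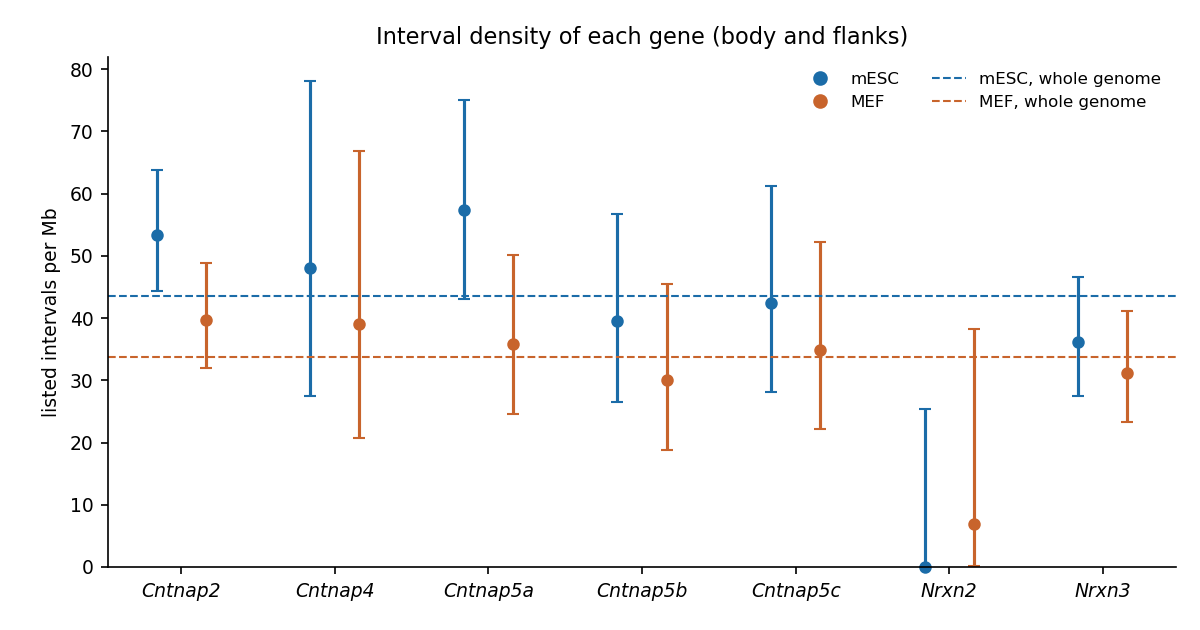
Points are listed intervals per Mb of territory for each gene, mESC to the left of MEF, with exact Poisson 95% intervals. Dashed lines are the whole genome, at 43.5 per Mb in mESCs and 33.8 in MEFs. Nrxn2 lies below both lines, with 0 and 6.88 per Mb.

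Of the 539 intervals, 56.8% were from the mESC list (95% exact binomial interval 52.5 to 61.0), and the share over both whole lists was 56.2%. Cntnap5a had the highest mESC share with 61.6% (50.5 to 71.9), and Nrxn3 had the lowest of the 6 genes with enough intervals to test, at 53.6% (43.9 to 63.2). Cntnap2 (57.3%), Cntnap5b (56.9%), Cntnap4 (55.2%) and Cntnap5c (54.9%) lay between them. In a two-sided exact binomial test against the share over all tested genes, 0 of these 6 passed after adjustment (adjusted p = 1.00 for each) and 0 at an unadjusted p below 0.05. The same test called 0% of all 3549 genes with at least 10 intervals after adjustment and 0.845% before it. No excess of either cell type was thus detectable at any of the 6 genes, and intervals that count in both lists pull each share toward the middle. With list-only intervals 0 members passed as well. The share of all genes called with them is not given here, so this 0 adds no support.

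Both cell types listed many of the same elements. Of the mESC intervals 124 of 306 (40.5%, 95% exact binomial interval 35.0 to 46.3) overlapped a MEF interval, and of the MEF intervals 122 of 233 (52.4%, 45.7 to 58.9) overlapped an mESC interval. The whole lists had 36.6% and 47.3%, values inside these intervals. The 3 Cntnap5 genes together shared 49 of 110 mESC (44.5%, 35.1 to 54.3) and 48 of 78 MEF intervals (61.5%, 49.8 to 72.3). This MEF interval lies above the list's 47.3%, and as a group of 3 genes it was not tested. Cntnap5b had the highest MEF value, with 14 of 29 mESC intervals (48.3%) and 14 of 22 MEF intervals (63.6%) shared. Cntnap5c shared 14 of 28 and 14 of 23, and Cntnap5a 21 of 53 and 20 of 33. Cntnap2 shared 48 of 121 (39.7%) and 48 of 90 (53.3%), and Nrxn3 23 of 59 (39.0%) and 22 of 51 (43.1%). Of the 6 genes tested Cntnap4 had the lowest shares, with 4 of 16 mESC and 4 of 13 MEF intervals, and wide 95% intervals of 7.27% to 52.4% in mESCs and 9.09% to 61.4% in MEFs. None of the 6 genes tested differed from its list in mESCs or in MEFs (0 and 0 calls by the exact binomial test after adjustment, and 0 and 0 before it). Nrxn2 was not tested, and its single MEF interval was not shared. Over all genes with at least 10 intervals the adjusted test called 0% of 1594 in mESCs and 0% of 1043 in MEFs, and the unadjusted one 5.14% and 6.14%.

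**Figure D3:**
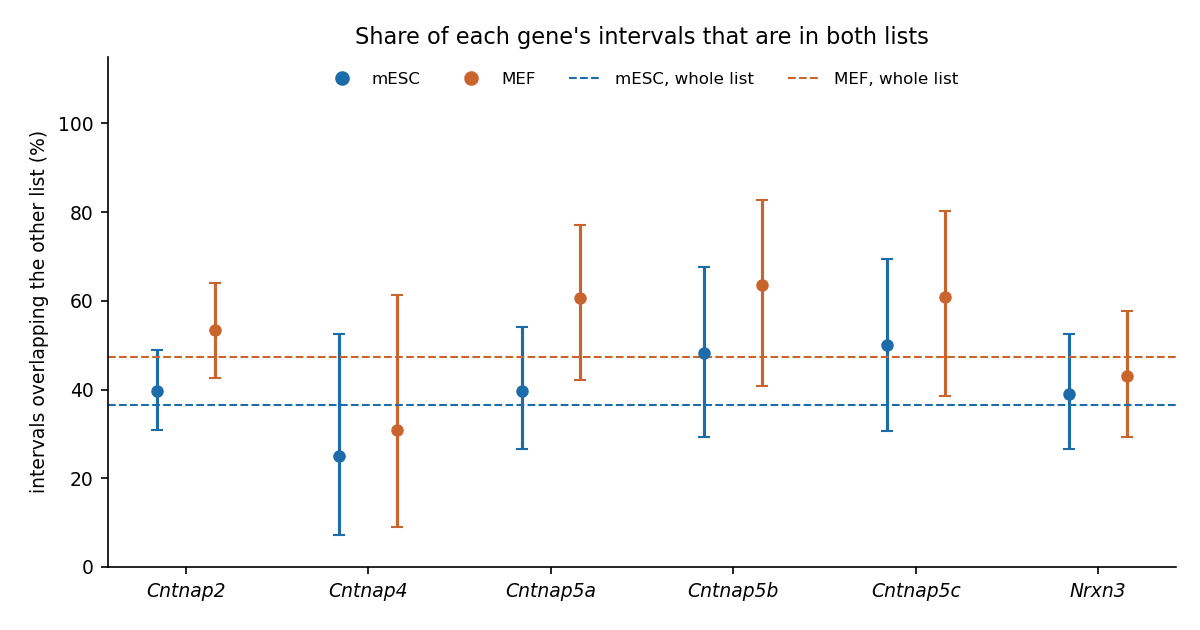
Points are the percentage of a gene's intervals that overlap the other list, mESC to the left of MEF, with exact binomial 95% intervals. Dashed lines are the whole lists, at 36.6% for mESCs and 47.3% for MEFs. Of the 6 genes shown Cntnap4 lies lowest and the 3 Cntnap5 genes lie highest in MEFs, and every 95% interval reaches its line.

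Some elements had the very same borders in both lists. This held for 8 intervals, 4 of them in Cntnap2, 2 in Cntnap5b and 1 each in Cntnap5a and Nrxn3. Of these, 1 in Cntnap2 intron 1 (chr6:45212751-45213151, folds 2.25 in mESCs and 2.30 in MEFs) and 1 in Cntnap5a intron 8 (chr1:116167201-116167651, folds 2.68 and 2.02) were soft-masked over their whole length. The Nrxn3 one, in intron 2 (chr12:88843551-88843751, folds 2.02 and 2.39), had no soft-masked base. Cntnap4, Cntnap5c and Nrxn2 had none.

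The elements lay almost entirely in introns, which make up nearly all of these genes, since 99.0% of the gene bodies is outside annotated exons. The gene bodies held 304 of the 306 mESC intervals and 230 of the 233 MEF intervals. The 5′ flanks held 2 mESC intervals (Cntnap5c and Nrxn3) and 3 MEF intervals (Cntnap4, Cntnap5b and Nrxn3), all list-only, and the 3′ flanks held 0 and 0. The median distance to the nearest exon of the gene was 20.8 kb for mESC and 24.4 kb for MEF intervals, with 29.5 and 39.8 kb in Cntnap2 and 7.06 and 1.88 kb in Cntnap4. Coding exons were overlapped by 3 mESC and 0 MEF intervals, where the genome's densities over their 30.2 kb give 1.31 and 1.02. These 2 values count exon bases alone and make no allowance for the length of an interval. They are thus too low for overlaps of 1 bp or more, and the count of 3 is not read as an excess.

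Those 3 were in Cntnap5a, Cntnap5b and Nrxn3. The mESC interval at chr12:89532701-89533201 held the whole of Nrxn3 exon 14, 120 bp long, in the model with 20 exons, and had a fold of 2.05. At chr1:100369501-100369851 (fold 2.47) an mESC interval covered 95 of the 128 bp of Cntnap5b exon 15. At chr1:116117700-116117950 (fold 2.71) one reached 14 bp into the 141 bp of Cntnap5a exon 7, and a MEF interval with a fold of 2.11 covered 78.0% of it. The other 2 had no MEF counterpart. All 3 lay over 100 kb from any annotated start site of their gene.

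Few listed intervals lay at start sites, which take up little of these genes. Within 1 kb of an annotated start site of these genes there were 0 mESC intervals and 1 MEF interval, at chr12:88953801-88954051 in Nrxn3 (fold 2.14), 528 bp from a start site 231 kb into the gene. Windows of this size around all the start sites, widened on each side by 100 bp, spanned 61.3 kb. The genome's densities give 2.67 mESC and 2.07 MEF intervals there. The counts of 0 and 1 went by interval midpoints without this widening, so these 2 values are somewhat too high for them. RefSeq promoter sequences of 300 bp were at hand for Cntnap2, Cntnap5b and Nrxn3, and 0 mESC and 0 MEF intervals overlapped them. They add up to 1.80 kb, too short for these counts of 0 to show a difference from the genome's densities. Promoters of the other 4 genes were not used here. Nrxn3 has its most downstream coding start site 1090 kb into the gene. The 1090 kb before that site held 41 mESC intervals (37.6 per Mb, 27.0 to 51.0) and 36 MEF intervals (33.0 per Mb, 23.1 to 45.7). The 522 kb after it held 17 mESC (32.5 per Mb, 19.0 to 52.1) and 14 MEF intervals (26.8 per Mb, 14.7 to 45.0). The stretches before and after this site did not differ beyond these intervals.

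The long introns held the intervals roughly by their length, with some spread. All 5 contactin-associated protein genes have 24 exons in their longest coding model, so their introns can be set side by side. Intron 1, 1130 kb over the 5 genes, held 49 mESC and 40 MEF intervals, or 43.4 (32.1 to 57.3) and 35.4 per Mb (25.3 to 48.2), close to the genome's. Intron 13, 574 kb in all, held 40 and 30 intervals, or 69.7 (49.8 to 94.8) and 52.2 per Mb (35.2 to 74.6), and both 95% intervals lay above the genome's density. Cntnap2 held 18 of the 30 MEF intervals, and in MEFs intron 13 of Cntnap5a, Cntnap5b and Cntnap5c stood at 33.5, 35.7 and 34.2 per Mb, near the genome's 33.8. Without Cntnap2 intron 13 had 63.5 mESC intervals (38.2 to 99.2) and 40.1 MEF intervals per Mb (20.7 to 70.1), and both 95% intervals then included the genome's density. Intron 3, 623 kb in all, held 38 and 24 intervals, or 61.0 (43.2 to 83.8) and 38.5 per Mb (24.7 to 57.3). Introns 1, 3 and 13 were singled out after their values were seen, so these densities are a description with no test.

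In Cntnap2, intron 1 alone is 594 kb long, 26.4% of the body, and held 20 mESC intervals (33.7 per Mb) and 21 MEF intervals (35.4 per Mb). Its intron 13, 276 kb long, held 21 mESC (76.2 per Mb, 47.2 to 116) and 18 MEF intervals (65.3 per Mb, 38.7 to 103). Intron 13 was thus the denser in both lists. In Nrxn3 the longest intron, number 14 with 443 kb, held 20 mESC (45.1 per Mb) and 16 MEF intervals (36.1 per Mb). Nrxn3 intron 9, 149 kb long, held 3 mESC intervals (20.2 per Mb, 4.17 to 59.0) and 8 MEF intervals (53.9 per Mb, 23.3 to 106), so it had more MEF than mESC intervals. Cntnap4 intron 3, 68.1 kb long, went the other way with 8 mESC (117 per Mb, 50.7 to 231) and 2 MEF intervals (29.4 per Mb, 3.56 to 106). Its 8 mESC folds ran from 2.15 to 5.10 and its MEF folds were 3.21 and 2.02, and 1 interval of each list overlapped the other. Both introns were picked after their values were seen.

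**Figure D4:**
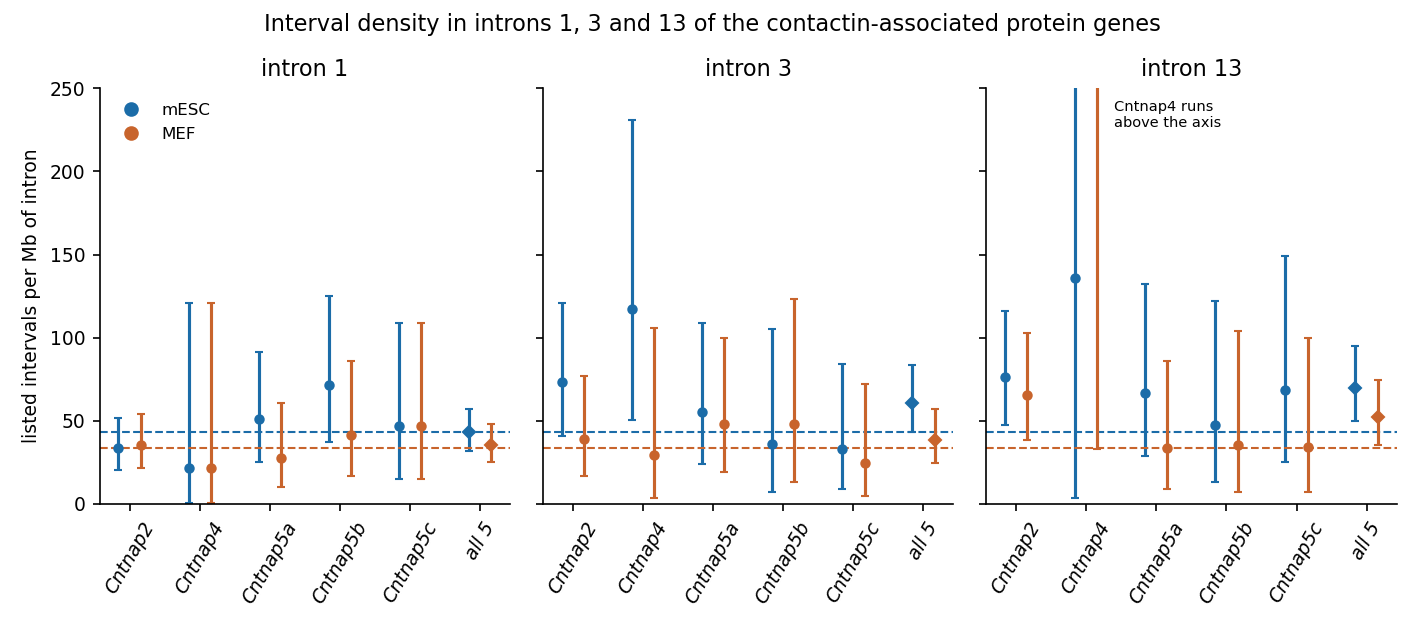
Points are listed intervals per Mb of intron for introns 1, 3 and 13 of the 5 contactin-associated protein genes and for all 5 together (diamonds), mESC to the left of MEF, with exact Poisson 95% intervals and dashed lines at the genome's densities. Intron 13 over all 5 genes lies above its line in both lists, at 69.7 and 52.2 per Mb, while in MEFs intron 13 of the 3 Cntnap5 genes lies near it. Intron 13 of Cntnap4, only 7.34 kb long with 1 mESC and 2 MEF intervals, runs off the axis.

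Along the bodies the counts of intervals varied from stretch to stretch, which was not tested against counting error. Each body was cut into 10 stretches of equal length, and the stretches of all 7 genes were pooled. They held 22 to 43 mESC intervals, with the most in the eighth stretch, and 18 to 32 MEF intervals, with the most in the sixth. Cntnap2 had its fewest mESC intervals in the second stretch (6) and its most in the eighth (19), and its MEF intervals ran from 6 to 14 per stretch, with the most in the ninth. Nrxn2 had no mESC interval in its whole territory of 145 kb, and its longest free stretch in MEFs was 126 kb. In the other 6 genes the longest stretches without an interval were 98.2 kb in mESCs and 119 kb in MEFs for Cntnap2, 114 and 110 kb for Nrxn3, and 105 and 125 kb for Cntnap5b. In Cntnap2 these stretches ran from 286 to 384 kb after the gene's start in mESCs and from 1329 to 1448 kb in MEFs. Neighbours in the same list were a median of 11.5 kb apart in mESCs and 14.6 kb in MEFs in Cntnap2, and 18.9 and 28.9 kb in Nrxn3. Within 5 kb of another mESC interval lay 64 of the 121 mESC intervals of Cntnap2, and within 5 kb of another MEF interval lay 38 of its 90 MEF intervals.

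Most listed folds were modest. The median authors' fold of the 306 mESC intervals was 2.52 (95% interval from order statistics 2.47 to 2.60) and of the 233 MEF intervals 2.39 (2.29 to 2.51), against 2.42 and 2.36 over the whole lists. A fold above 4 was given to 36 mESC intervals (11.8%) and 23 MEF intervals (9.87%), against 7.99% and 5.92% of the whole lists. Cntnap2 had 16 and 8 of these, Cntnap5a 8 and 5, and Nrxn3 5 and 5. Cntnap5a had the highest medians of the genes with over 1 interval per list, at 2.65 in mESCs and 2.72 in MEFs. The lowest mESC median was that of Cntnap5c (2.39), and the lowest MEF median was that of Cntnap4 (2.14). Many intervals of a list have the same fold. The commonest value (2.71 in mESCs and 2.72 in MEFs) stood at 14 of the 306 mESC and 6 of the 233 MEF intervals. It stood at 3.55% and 3.41% of the whole lists.

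After the Cntnap5a intron 1 element, the next highest mESC folds were 7.09 at chr17:58299904-58300304 in Cntnap5c intron 16 and 7.05 at chr6:45751049-45751099 in Cntnap2 intron 3. The Cntnap2 one was 50 bp long, wholly soft-masked, with a GC content of 22.0%. Neither had a MEF counterpart. In MEFs the next were 6.81 at chr1:116212101-116212251 in Cntnap5a intron 10, with no mESC counterpart, and 6.53 at chr6:45184201-45184551 in Cntnap2 intron 1, whose mESC counterpart had 4.78. The intervals with the highest folds were thus a mixture of shared and list-only ones.

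The longest interval of each gene had a fold below its list's median (2.42 in mESCs and 2.36 in MEFs), except in Cntnap5a, where it lay above. Cntnap2 intron 13 held an mESC interval of 800 bp (chr6:46752901-46753701, fold 2.37, with a MEF counterpart at 2.11), and Nrxn3 intron 2 an mESC interval of 800 bp with no MEF counterpart (chr12:88838651-88839451, fold 2.33). The longest of Cntnap5a, in intron 3, measured 600 bp (chr1:115922401-115923001) with folds of 3.69 in mESCs and 3.40 in MEFs. That of Cntnap5c, in intron 17, measured 550 bp (chr17:58312590-58313140) with 2.10 and 2.64. Cntnap5b had its longest in the MEF list alone, 550 bp in intron 3 (chr1:99968701-99969251, fold 2.03). In Cntnap4 intron 13 an mESC interval (chr8:112804815-112805115, fold 2.25) and the MEF interval that overlapped it (chr8:112804801-112805101, fold 2.28) both measured 300 bp, the longest of that gene. The single Nrxn2 interval (chr19:6535201-6535351, fold 2.27) was 150 bp long. The median length was 200 bp in both lists, as in the whole lists. Of these genes' intervals 42 of 306 in mESCs and 30 of 233 in MEFs were 50 bp long, beside 15.7% and 16.3% of the whole lists.

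Where both lists held an element, the folds tended to be high or low together. Over 124 overlapping pairs Spearman's rho was 0.446 and Pearson's r of the log2 folds was 0.644. This is across pairs of 2 lists that may share the input libraries and whose scaling is not given, so it is a description. The mESC fold was the higher in 71 pairs and the MEF fold in 53, with ratios of mESC over MEF from 0.437 to 1.81. By gene the median ratio was 1.14 in Cntnap5a (mESC higher in 15 of 21 pairs), 1.04 in Cntnap4 (2 of 4), 1.03 in Cntnap2 (28 of 48) and Cntnap5b (8 of 14), 1.00 in Nrxn3 (12 of 23) and 0.930 in Cntnap5c (6 of 14). Both folds lay above 4 in 9 pairs, 4 of them in Cntnap2, 2 in Cntnap5a, 2 in Nrxn3 and 1 in Cntnap5c. The second Cntnap5a pair lay in intron 3, 263 kb from its start, with folds of 4.46 in mESCs and 4.96 in MEFs. The second Nrxn3 pair lay 1304 kb from the start, with folds of 4.26 and 5.99.

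**Figure D5:**
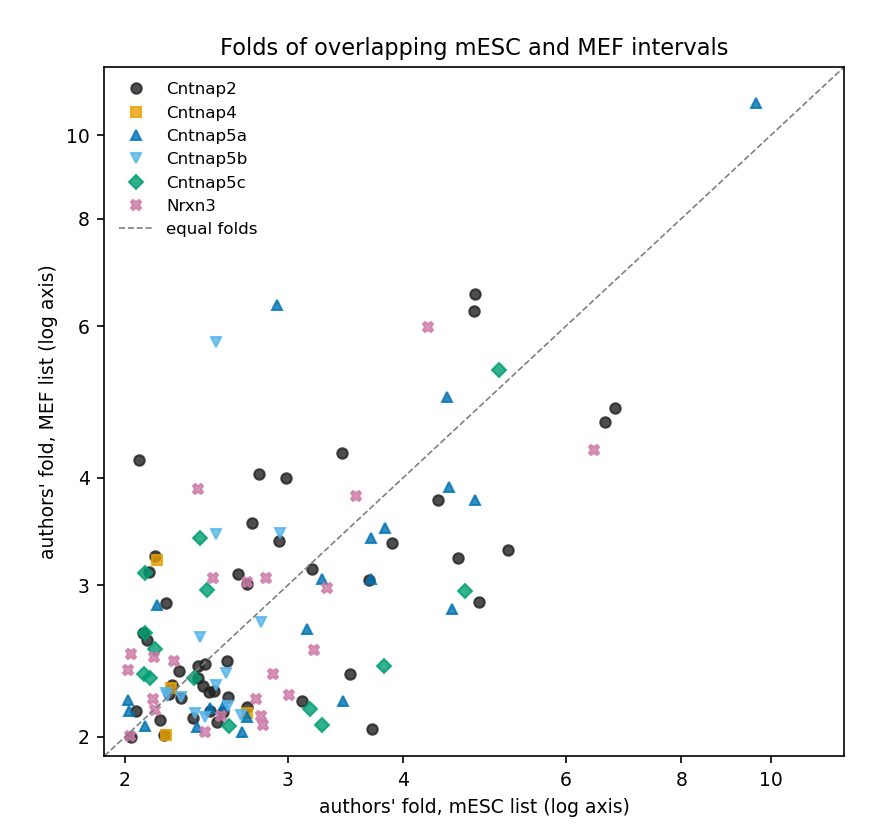
Each point is 1 of the 124 overlapping pairs, with the authors' fold in the mESC list on the horizontal and in the MEF list on the vertical log axis, by gene. Most pairs lie between 2 and 4 in both lists, and the Cntnap5a pair at 9.64 and 10.9 lies apart from the rest.

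Shared intervals had higher median folds than list-only ones in both lists, as in the whole lists. The medians were 2.57 for shared and 2.50 for list-only mESC intervals, and 2.43 and 2.31 for MEF intervals, against 2.53 and 2.36, and 2.46 and 2.29, over the whole lists. The gap was widest in Cntnap5a mESC intervals (3.15 shared and 2.57 list-only). It ran the other way in Cntnap4 mESC intervals (2.23 for 4 shared and 2.76 for 12 list-only), in Cntnap5b mESC intervals (2.51 and 2.57) and in Nrxn3 MEF intervals (2.42 and 2.52). These are descriptions with no test.

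Pooled over the genes, the intervals were near the territories in base composition, while in single genes the soft-masked share could depart from that of the territory. GC content averaged 38.6% in mESC and 39.2% in MEF intervals, against 40.3% and 40.1% over the whole lists and 38.9% in the 7 territories. Soft-masked repeat made up 31.5% and 30.2% of these intervals, against 40.9% and 38.5% over the whole lists. The territories themselves were 30.8% soft-masked and the genome 36.4%. In Nrxn3, with 21.4% of its territory masked, the intervals averaged 21.5% in mESCs and 17.0% in MEFs. In Cntnap2, with 33.1%, they averaged 37.5% and 37.8%. Cntnap5c, with 40.3%, had lower averages of 27.7% and 19.3%, as did Cntnap5b, with 35.7%, at 30.1% and 26.2%. Cntnap5a, with 34.1%, had 30.0% in mESCs and 41.4% in MEFs. Cntnap4, with 29.2%, had 37.3% and 26.7%. Wholly masked were 21 of 306 mESC and 20 of 233 MEF intervals, 12 and 12 of them in Cntnap2, beside 10.1% and 9.34% of the whole lists.

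Short motifs were searched on both strands in windows of 300 bp centred on each interval, so a match can lie beside the listed bases. The AP-1 motif (TGANTCA), bound by FOS and JUN factors, was in 26 of the 306 mESC windows (8.50%, 95% exact binomial interval 5.63 to 12.2) and 26 of the 233 MEF windows (11.2%, 7.42 to 15.9), against 8.17% and 9.24% of all windows. The TEAD motif (GGAATG) was in 17.6% and 18.0%, against 16.5% and 16.2%. Both lay within counting error of the lists. The SOX motif (AACAAT) was in 21.2% and 19.3%, against 22.8% and 22.5%, and the OCT motif (ATGCAAAT) in 2.94% and 2.15%, against 2.51% and 2.53%. The KLF/SP motif (GGGCGG), rich in GC, was in 5 mESC windows (1.63%, 0.533 to 3.77) and 1 MEF window (0.429%, 0.0109 to 2.37), against 2.85% and 2.57%, so the MEF bound lay below the list. The MYC-type E-box (CACGTG) was in 4 (1.31%) and 3 (1.29%), against 2.50% and 2.83%. The printed Cntnap2 element holds the E-box, beginning at base 100, inside the bases listed in both cell types. The printed Cntnap5a element holds the SOX letters at base 101 and the TEAD letters at base 225, both on the minus strand.

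REST, a repressor of neuronal genes in cells that are not neurons, binds a long site made of a left part and a right part. The left part (CAGCACC) was in 18 mESC windows (5.88%, 3.52 to 9.14) and 7 MEF windows (3.00%, 1.22 to 6.09), against 4.89% and 5.45% of all windows. The right part (GGACAG) was in 40 (13.1%, 9.51 to 17.4) and 24 (10.3%, 6.71 to 14.9), against 17.5% and 17.8%. For the right part the upper bounds lay below the share of all windows in both lists, and the GC content of the intervals was lower too, as given above. The printed Cntnap2 element holds the letters of the right part on the minus strand, inside the bases listed in both cell types. Both parts in order with 2 bases between them were in 0 mESC and 0 MEF windows, against 0.0234% and 0.00670% of all windows, and 0 of 306 and 0 of 233 allow up to 1.20% and 1.57%. No match says only that these letters are not in these windows.

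The partners of these proteins gave similar values. A list of 30 genes held further Caspr genes, neurexin ligands, contactins and intracellular binding proteins, and its territories held 344 mESC and 258 MEF intervals, 46.2 and 34.6 per Mb. For density, 14 of the 30 were tested in mESCs, of which 1 passed as higher (Cntnap3) and 0 as lower, and 14 in MEFs, of which 0 passed, beside the shares of all genes given above. Cntnap3, a further gene of the Caspr family, had 18 mESC intervals where 8.17 were expected (exact binomial test, adjusted p = 0.0331) and 9 MEF intervals where 6.35 were expected (adjusted p = 0.632). In the test of the mESC share 0 of 14 passed. The 6 contactins, axonal partners of the Caspr proteins, held 175 mESC (50.1 per Mb, 43.0 to 58.1) and 132 MEF intervals (37.8 per Mb, 31.6 to 44.8), close to the 50.3 and 36.8 per Mb of the 5 contactin-associated protein genes. Among single partners the most intervals were in Cntn5 (69 mESC and 51 MEF), Cntn4 (48 and 36), the ligand genes Lrrtm4 (33 and 32) and Nlgn1 (35 and 26), and Cntn6 (26 and 14).

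Against 2 other families with long genes, the 7 genes lay between in density. The 3 Csmd genes held 39.8 mESC (33.4 to 47.0) and 32.1 MEF intervals per Mb (26.4 to 38.6), and the 5 Dlg genes 51.3 (42.7 to 61.0) and 42.0 (34.3 to 50.9). The 7 genes, with 45.7 and 34.8 per Mb, had intervals that overlapped those of both families. For mESC density 1 of 3 Dlg genes tested and 0 of 3 Csmd genes passed as higher, beside 6.36% of all genes. This was Dlg1, with 24 intervals where 10.1 were expected (exact binomial test, adjusted p = 0.00653). The shared percentages were 40.5% and 52.4% in the 7 genes, 33.1% and 41.1% in the Csmd genes and 40.2% and 47.1% in the Dlg genes. Those of the 7 genes were the highest of the 3 groups, and these differences were not tested.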

How the data were processed

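Ss-STARR-seq intervals of mESCs and MEFs were taken from the 2 deposited lists. The fold of an interval is the authors' deposited linear ratio, per the file headers. Bowtie2 and SAMtools are named without versions, per the submitters' processing notes, which name hg38, while the design text names mm10. All interval ends fitted mm10, which was used. Nothing in the sources used here gives the caller, scaling, treatment of replicates or depth, and no interval has an error of its own. Positions are uncertain by 1 bp.

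Intervals were assigned to protein-coding territories (body plus 10 kb, GENCODE M21). Exact binomial tests for density (at least 5 expected), mESC share and shared share (at least 10 intervals) ran over all genes, with Benjamini-Hochberg adjustment at 0.05. They were tested on simulated independent counts, which do not gather as the intervals do. An interval in several territories counted in each. Python 3.11.15, pandas 2.3.3, scipy 1.17.1 and matplotlib 3.10.9 were used. The members, partner lists and motifs were chosen with earlier results of these data known. Named intervals were, by rule, the 3 highest folds per list, those at coding exons or start sites, the longest of each gene and the highest shared mESC one of each gene; 1 such sequence and 1 partner gene are not reported here. The CRISPR knockouts and other omics data were not analysed here.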

Additional observations from a re-analysis of the deposited data

How the results depend on the processing

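No paired analysis was possible because the lists carry no columns for single libraries or replicates. Intron 13 without Cntnap2, an alternative chosen after seeing the data, had 1.46 times the genome's density in mESCs and 1.19 times in MEFs, against 1.60 and 1.54 with it. Of the 260 other recomputed values, 157 were for single genes, and 131 of these kept their direction and side of the threshold. The other 103 were pooled values and counts, of which 95 lay inside the main 95% interval or were unchanged counts. Some of these 95 still crossed 1. They were mESC density (0.961) and MEF density (0.955) without Cntnap2, and the mESC share (0.993) without Cntnap5a. With folds at or above the list median, the shared share over the list's was 0.852 in mESCs and 0.952 in MEFs, where cutting both lists removes possible counterparts. The mESC density over the genome's was 1.27 (95% exact Poisson interval 1.09 to 1.47) with those folds and 1.19 (1.04 to 1.36) without soft-masked sequence. Both of these intervals lay above 1, while that of the main value, 1.05 (0.937 to 1.18), included 1. The count of members called for mESC density was 2 with those folds, and 0 with the gene body alone, with merged intervals and without soft-masked sequence, where Nrxn2 had 4.82 expected intervals and was not tested. Leaving out 1 gene at a time gave 0.961 to 1.12 for mESC density, 0.955 to 1.06 for MEF density, 0.993 to 1.02 for the mESC share, and 1.08 to 1.13 and 1.08 to 1.16 for the shared share in mESCs and MEFs.

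Some values crossed 1 for genes that were not called. The mESC share over all genes crossed for Cntnap5b merged (0.990), Cntnap4 with body alone (1.02), folds at or above the median (1.28) and merged intervals (1.01), and Cntnap5c with list-only intervals (1.01). The shared share over the list's crossed with folds at or above the median for mESC intervals of Cntnap5b (0.846), Cntnap5a (0.983), Cntnap2 (0.900), Nrxn3 (0.804) and Cntnap5c (0.989) and MEF intervals of Cntnap5c (0.831). It also crossed for Nrxn3 mESC intervals with 50% overlap (0.979) and midpoints within 1 kb (0.967). Density crossed with folds at or above the median for Cntnap5b in mESCs (1.19) and for Cntnap4 (0.710) and Nrxn3 (1.09) in MEFs, and with merged intervals for Cntnap5c in mESCs (1.00). Without soft-masked sequence it crossed for Cntnap5b (1.22) and Cntnap5c (1.20) in mESCs and for Cntnap5b (1.11), Cntnap5a (0.912) and Nrxn3 (1.06) in MEFs. The cause of these shifts was not tested. The lists hold no counts, so depth could not be weighed.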
